A study of Mus musculus with 2 samples.

Results

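The 10 genes described here encode RNA-binding proteins that carry mRNAs into dendrites and hold or release their translation there: Fmr1, Fxr1, Fxr2, Cpeb1, Cpeb2, Cpeb3, Cpeb4, Stau1, Stau2 and Pura. They were taken by gene symbol from the 23329 genes of the deposited tables, where all 10 were found, with 18 of the 30383 listed transcripts. The values are levels of the mRNAs that encode these proteins, not of the proteins or of the RNAs they bind. Brain RNA of wild-type C57BL/6 mice was sequenced as 2 libraries, a total homogenate of whole brain and a fraction enriched for synaptosomes, which are nerve terminals that seal on homogenization and often keep a piece of the facing dendrite. Whether both came from the same brain, and the age and sex of the mice, are not stated. The titles of both libraries carry the code CT10, whose meaning is not stated either. The fraction came from a Percoll density gradient run after nuclei had been spun down, and the series title gives its purpose as finding mRNAs enriched at synapses. The homogenate library held 15210838 estimated counts and the synaptosome library 13709528. There was 1 library of each kind, so no value has a replicate, no p-value is given, and every interval is a 95% interval that covers counting error only.

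Neurons move selected mRNAs along microtubules in granules, packed with proteins that keep them silent until a synapse is active. FMRP, the product of Fmr1, and its relatives FXR1P and FXR2P bind mRNA and polyribosomes, and loss of FMRP causes fragile X syndrome. CPEB proteins bind short uridine-rich elements in the untranslated end of mRNAs and govern poly(A) tail length and translation. The Staufen proteins bind double-stranded RNA, with STAU2 the form most abundant in brain, and Pur-alpha binds purine-rich single-stranded nucleic acid and travels with kinesin-bound RNA granules.

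Of the 10 mRNAs, only Cpeb1 differed by at least 2-fold between the libraries, and it was lower in the synaptosome fraction. None was at least 2-fold higher. A gene was counted when its ratio reached 2-fold and its counting interval excluded no change, after TMM scaling, which sets each library relative to its typical gene. By that rule 12.7% of the 14153 genes averaging 1 CPM or more (counts scaled to an equal library size) were higher and 9.22% were lower, so 0 and 1 of 10 are close to what all genes gave. The median log2 ratio of the 10 genes, synaptosome over homogenate, was -0.10, against -0.02 for all genes. In RNA from a mixed tissue, a fraction that holds fewer cells or processes of a kind and less RNA in each cannot be told apart.

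The sign of the smaller ratios depended on the scaling. Under TMM 4 of the 10 ratios lay above 0 and 6 below. With plain library totals, which lowered each log2 ratio by 0.49 (all-gene median -0.51), only Pura stayed above 0 (0.0015), and with the deposited TPM all 10 lay below 0. With library totals 4.49% of all genes counted as higher and 25.6% as lower. All folds below are TMM-scaled and therefore relative to the typical gene. Ratios between members within a library do not depend on how counts are scaled between libraries. They do differ between counts and TPM, which is relative to transcript length. In the homogenate Cpeb2 stood at 2.09 times Cpeb4 by counts and at 0.694 times by TPM.

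**Figure D1:**
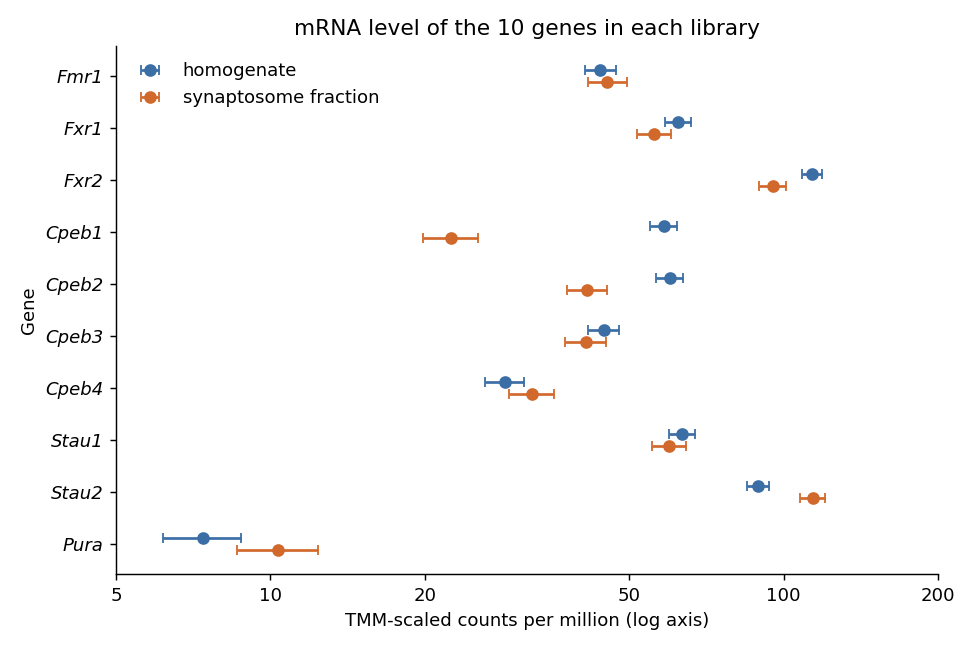
TMM-scaled CPM (log axis) of each gene in the homogenate (blue) and the synaptosome fraction (orange). Bars are 95% counting intervals of single libraries. The intervals of the 2 libraries stand clearest apart for Cpeb1, at 58.4 and 22.5.

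Markers show what else differed between the libraries, with summed levels given in TMM-scaled CPM, the scale of the calls. Of 8 astrocyte markers 7 were higher by at least 2-fold in the fraction, with a summed level of 4371 CPM in the homogenate and 18593 CPM in the fraction. Of 6 endothelial markers 5 were at least 2-fold lower (162 and 21.8 CPM in sum), as were all 5 nuclear noncoding RNAs that passed the 1 CPM minimum (8882 and 1842 CPM over the 6 listed). Of 6 postsynaptic and dendritic mRNAs 4 were at least 2-fold higher (3520 and 11408 CPM), while 3 of 7 general neuronal markers were lower and 0 higher (6192 and 5846 CPM). Microglial markers had 3 of 6 higher (207 and 386 CPM) and oligodendrocyte markers 2 of 6 (7152 and 22722 CPM). Of all these markers only Xist, a nuclear RNA, was at 0 in a library (0 and 2 counts). The part of these differences in the results below was not tested.

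Levels per transcript length were compared in the deposited TPM. Fxr2 led the homogenate at 111 TPM, followed by Stau2 at 92.1 and Fxr1 at 85.7, whose counting intervals overlapped. Stau1 followed at 61.7, Cpeb1 at 54.8, Cpeb4 at 36.4, Fmr1 at 28.8, Cpeb2 at 25.2, Cpeb3 at 22.1 and Pura at 13.8. In the synaptosome fraction Stau2 came first at 81.2 TPM and Fxr2 second at 64.4, then Fxr1 at 53.2, Stau1 at 40.3, Cpeb4 at 28.3 and Fmr1 at 20.5. Cpeb1 (14.5), Cpeb3 (14.03), Pura (13.4) and Cpeb2 (12.04) closed the order there, each with a counting interval that overlapped the next. Cpeb1 thus moved from place 5 to place 7, and Stau2 changed places with Fxr2. All 10 genes were marked as present in both libraries in the authors' gene table.

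Of the CPEB genes, Cpeb1 and Cpeb2 were lower in the synaptosome fraction beyond counting error, and Cpeb3 and Cpeb4 had intervals that included no change. Cpeb1 (mm10, chromosome 7, 81347026 to 81454758, minus strand), the founding member, which binds the classical polyadenylation element, had 1052 counts in the homogenate against 260 in the fraction. Its scaled level was 58.4 CPM and 22.5 CPM, which is 2.60-fold lower in the fraction (2.27 to 2.99). Only 4.15% of all genes had a ratio as low. Among the genes of similar abundance, taken as the same of 20 equal bins of mean CPM, Cpeb1 lay at percentile 2.54. It stayed more than 2-fold lower under each of the other scalings tried, with log2 ratios from -1.36 to -1.91.

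Cpeb2 (chromosome 5, 43233463 to 43289724, plus strand), one of the 3 relatives with a somewhat different target preference, had 1080 and 480 counts. That was 1.45-fold lower (1.297 to 1.61), short of 2-fold, and passed 2-fold under library totals (log2 -1.02) and TPM (-1.07). Cpeb3 (chromosome 19, 37021291 to 37207293, minus strand), a repressor of synaptic mRNAs linked to memory persistence, had 805 and 476 counts. Its fold, 1.09-fold lower, had an interval that included no change (1.22-fold lower to 1.03-fold higher). Cpeb4 (chromosome 11, 31872211 to 31931577, plus strand) had 516 and 374 counts and a ratio of 1.13, with an interval from 0.985 to 1.29. The CPEB genes therefore ran in order from Cpeb1, the lowest ratio of all 10 members, through Cpeb2 and Cpeb3 to Cpeb4.

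Within the family the make-up shifted away from Cpeb1, a measure that needs no scaling between libraries. Cpeb1 held 30.5% of the 3453 CPEB counts in the homogenate (28.9 to 32.0) and 16.4% of the 1590 in the synaptosome fraction (14.6 to 18.3). Cpeb4 held 14.9% (13.8 to 16.2) and 23.5% (21.5 to 25.7), and Cpeb3 23.3% (21.9 to 24.8) and 29.9% (27.7 to 32.3). Cpeb2 kept a similar share, 31.3% and 30.2%, with overlapping intervals. These count shares are not corrected for model length, and TPM shares gave another order of the genes. In TPM Cpeb1 held 39.6% in the homogenate and 21.1% in the fraction, and Cpeb4 26.3% and 41.1%. Cpeb2 held 18.2% and 17.5% of the TPM, and Cpeb3 15.9% and 20.4%. Per length, Cpeb1 stood at 1.51 times Cpeb4 in the homogenate and at 0.513 times in the fraction. The log2 ratios of Cpeb1 and Cpeb4 differed by -1.55 (-1.83 to -1.27), those of Cpeb1 and Cpeb3 by -1.26 (-1.52 to -0.998) and those of Cpeb1 and Cpeb2 by -0.85 (-1.10 to -0.59). By sequence these genes form a pair of subfamilies, Cpeb1 alone and Cpeb2 to Cpeb4 together. Within the second, the log2 ratios of Cpeb2 and Cpeb4 differed by -0.71 (-0.96 to -0.45), an interval that overlaps that of Cpeb1 and Cpeb2.

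**Figure D2:**
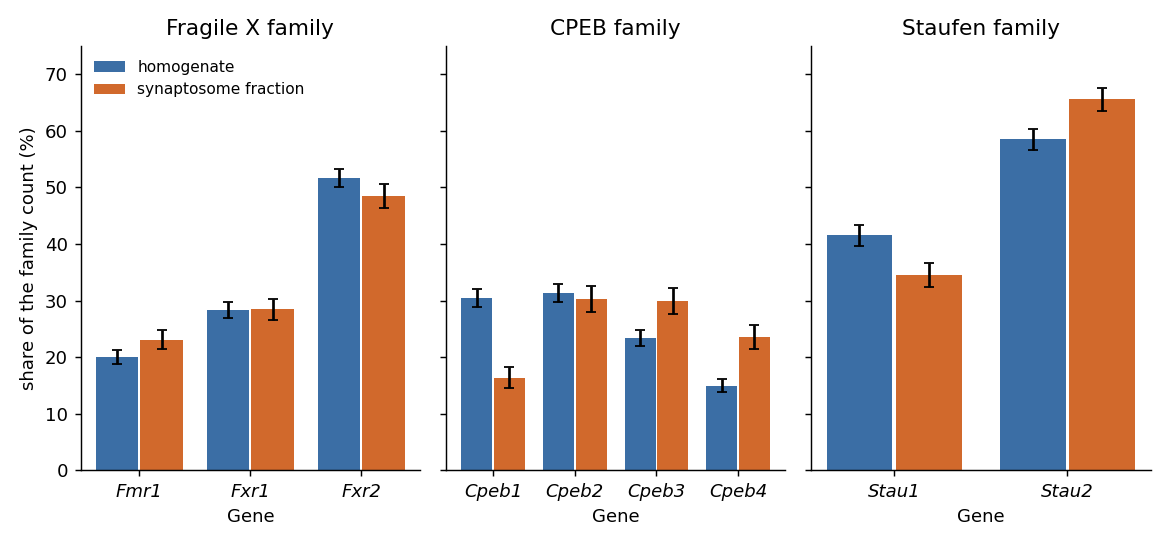
Share of each family's summed estimated count (percent, linear axis from 0) held by each gene in the homogenate (blue) and the synaptosome fraction (orange), with exact 95% binomial intervals. Cpeb1 goes from 30.5% to 16.4%, and Cpeb4 from 14.9% to 23.5%. The counts are not corrected for model length.

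Cpeb2 and Cpeb1 are also the members whose transcripts divided differently between the libraries. The 2 listed Cpeb2 transcripts differ by 2 coding exons, each a multiple of 3 bases long. NM_001177379 holds an exon of 24 bases (chr5:43268869-43268892, plus strand), and NM_175937 holds an exon of 90 bases further upstream (chr5:43238327-43238416). Neither transcript holds both. Exons this short are called microexons and are a known feature of neuronal transcripts. The only listed transcripts of Cpeb3 and Cpeb4 carry an exon of 24 bases too, at chr19:37105791-37105814 on the minus strand and chr11:31918801-31918824 on the plus strand. It precedes an exon of 171 bases in Cpeb2, 168 in Cpeb3 and 174 in Cpeb4. The sequences are shown because the Cpeb2 and Cpeb1 shares rest on reads that reach them. They are those of GENCODE M21 transcripts (GRCm38, the same assembly as mm10) with the same exon bounds. Capitals mark the 9 bases that are the same in all 3 microexons.
Cpeb2 microexon: CaaggAgttATggGcgAAGacgaG
Cpeb3 microexon: CcttaAtggATatGatAAGgactG
Cpeb4 microexon: CaaggActtATggGcgAAGgagaG
Cpeb2 exon of 90 bases: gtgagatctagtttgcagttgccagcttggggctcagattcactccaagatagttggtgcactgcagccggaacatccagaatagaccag
Cpeb1 segment of 15 bases: gtaatatgcctaaag

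The Cpeb4 microexon matched that of Cpeb2 at 21 of 24 bases, and the Cpeb3 microexon at 9 of 24. The Cpeb1 segment (chr7:81356894-81356908, minus strand) is part of a coding exon in NM_001252525 and is missing from NM_001252526. Together with a further stretch of 3 bases it is all that separates these Cpeb1 transcripts.

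The Cpeb2 transcript with the microexon held 66.5% of the gene's counts in the homogenate (63.6 to 69.3) and 48.2% in the synaptosome fraction (43.8 to 52.9). Its estimated count was 718 and 232, or 1.99-fold lower (1.71 to 2.32). The transcript with the exon of 90 bases had 362 and 248 counts, a log2 ratio of 0.09 (-0.15 to 0.33). Under TMM the lower total of Cpeb2 in the fraction was thus read on the microexon transcript. In TPM both transcripts were lower in the fraction. The microexon transcript had 16.84 TPM in the homogenate and 5.84 in the fraction, and the other 8.4 and 6.2. The bases that separate these transcripts make up 1.67% of the longer model, so few reads bear on the share, and the error of assigning reads to transcripts is not in the intervals.

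Cpeb1 showed a shift of the same kind at lower counts. NM_001252526, which lacks the 15 bases, held 93.2% of Cpeb1 counts in the homogenate (91.5 to 94.6) and 81.8% in the synaptosome fraction (76.7 to 86.4). It was 2.96-fold lower in the fraction (2.55 to 3.44), from 980 counts to 213. NM_001252525, which holds them, had 72 and 47 counts and a log2 ratio of 0.02 (-0.54 to 0.57). The distinguishing bases are 0.578% of the Cpeb1 model, so again few reads bear on the share, and the intervals do not show this. The third listed transcript, NM_007755, was listed at 0 in both libraries. It differs from NM_001252525 by only 3 bases, so the 0 rests on how reads were assigned and sets no limit on its share.

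Of 16 member transcripts with at least 1 CPM, that Cpeb1 transcript was the only one at least 2-fold lower, and 0 were higher. Among all 17612 transcripts with at least 1 CPM, 13.6% were at least 2-fold lower and 16.1% higher. Shifts in share were common as well: of 2575 genes with several listed transcripts and at least 100 counts in each library, 46.0% had a transcript whose share moved by 10 percentage points or more. The shift of 18.3 points in Cpeb2 lay at percentile 73.1 of those genes and that of 11.4 points in Cpeb1 at percentile 58.1, so neither stands out by size.

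**Figure D3:**
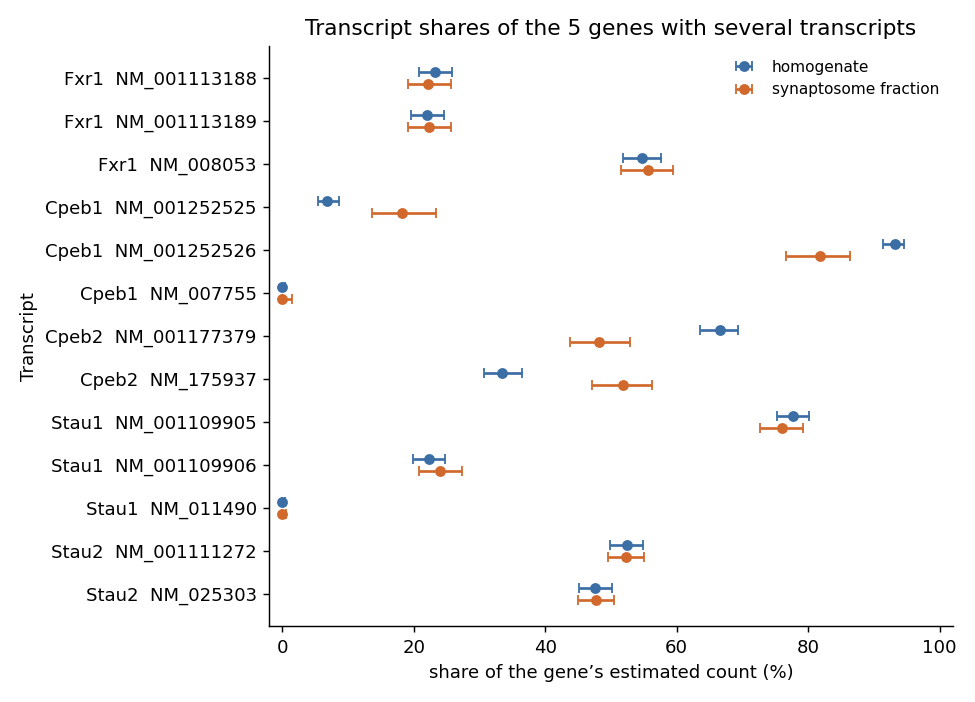
Share of the gene's estimated count (percent) held by each listed transcript of the 5 members with several, in the homogenate (blue) and the synaptosome fraction (orange), with exact 95% binomial intervals. Cpeb1 and Cpeb2 have intervals that stand apart, while those of Fxr1, Stau1 and Stau2 overlap. The intervals take all counts of the gene and leave out the error of assigning reads to transcripts.

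The fragile X family stayed close to the typical gene. Fmr1 (chromosome X, 68678555 to 68717961, plus strand), which encodes FMRP, had 792 counts in the homogenate against 525 in the fraction. Its ratio was 1.03 (0.922 to 1.15), an interval that included no change. It lay at percentile 53.3 of all genes, and library totals turned its log2 ratio from 0.05 to -0.44. The Fmr1 message was thus present in the fraction at about the same relative level as in the homogenate.

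Fxr1 (chromosome 3, 34020079 to 34069344, plus strand), the relative that is also prominent in muscle, had 1122 and 647 counts. It was 1.11-fold lower (1.01 to 1.23). Fxr2 (chromosome 11, 69632971 to 69653297, plus strand), a further relative of FMRP, had 2046 and 1102 counts and was 1.19-fold lower (1.11 to 1.28). Both differences were small. That of Fxr2 exceeded counting error, while the Fxr1 interval ended close to no change and included it with DESeq2 size factors. Among genes of its abundance, whose median log2 ratio was 0.24, Fxr2 lay at percentile 26.7.

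Fmr1 held 20% of the family's counts in the homogenate (18.8 to 21.3) and 23.1% in the synaptosome fraction (21.4 to 24.9). Fxr2 held 51.7% (50.1 to 53.2) and 48.5% (46.4 to 50.5), and Fxr1 28.3% and 28.5%. The log2 ratios of Fxr2 and Fmr1 differed by -0.30 (-0.49 to -0.10), and those of Fxr1 and Fmr1 by -0.20, with an interval that included 0 (-0.42 to 0.01). The 3 listed Fxr1 transcripts kept their shares: NM_008053, the shortest, held 54.7% and 55.6%, and none moved by more than 1.04 points. Their shares rest on 3 coding segments that add up to 260 bases, more than in Cpeb1 or Cpeb2.

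The Staufen genes differed in their ratios, with Stau2 the higher. Stau2 (chromosome 1, 16228810 to 16519302, minus strand), needed for dendritic RNA transport in neurons, had 1606 and 1318 counts. It was 1.28-fold higher in the synaptosome fraction (1.19 to 1.38), a log2 ratio of 0.35, against -0.14 with library totals and -0.18 in TPM. Stau1 (chromosome 2, 166948142 to 166996278, minus strand), the widely expressed form that also takes part in mRNA decay, had 1140 and 692 counts. It was 1.06-fold lower, with an interval from 1.16-fold lower to 1.04-fold higher.

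Stau2 therefore took a larger part of the Staufen counts in the fraction, 65.6% (63.4 to 67.7) against 58.5% (56.6 to 60.3) in the homogenate, and this holds whatever the scaling. The log2 ratios of Stau1 and Stau2 differed by -0.44 (-0.61 to -0.26). The 2 Stau2 transcripts differ by a single exon of 131 bases, which no annotated coding stretch held in full. Both kept their shares: NM_025303, which holds that exon, had 47.6% and 47.7%. In Stau1, NM_001109906, with 18 added coding bases, held 22.3% (19.9 to 24.8) and 24.0% (20.9 to 27.3). The transcript NM_011490 was listed at 0 in both libraries. It lacks only 6 bases of NM_001109905, so that 0 too rests on the assignment of reads.

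Pura (chromosome 18, 36281162 to 36288244, plus strand) had the fewest counts, 133 in the homogenate against 120 in the fraction. It was 1.40-fold higher (1.09 to 1.81), the highest ratio of the 10 members, at percentile 72.0 of all genes. That log2 ratio of 0.49 was 0.0015 under library totals and -0.05 in TPM, so its direction rests on the scaling. Its relative Purb, encoding Pur-beta, had 7136 and 8026 counts and was 1.75-fold higher (1.70 to 1.81). The other relative, Purg, had 367 and 184 counts and was 1.28-fold lower (1.07 to 1.54).

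**Figure D4:**
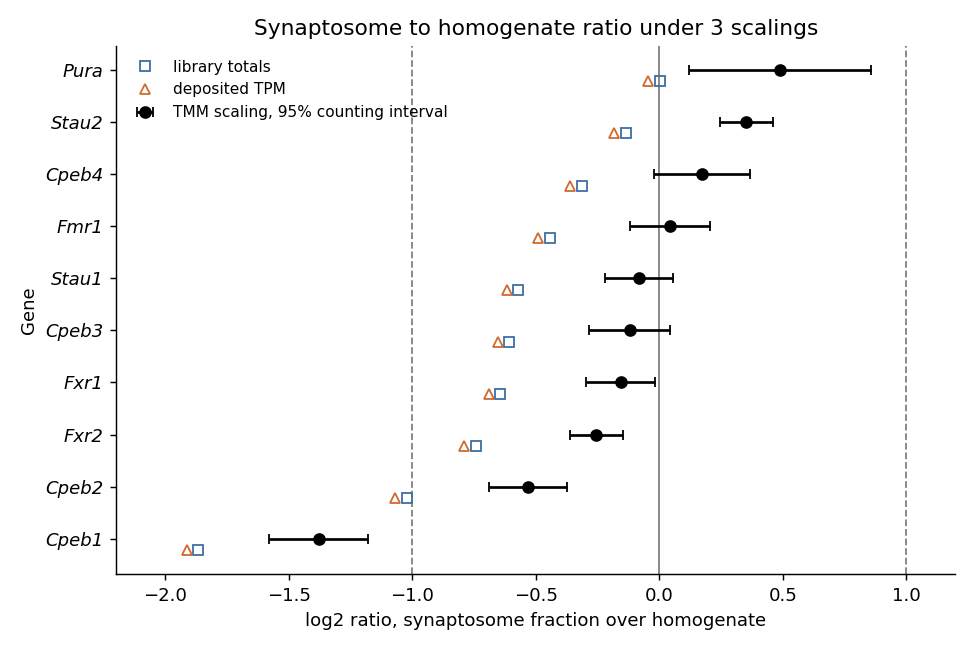
Log2 ratio of the synaptosome fraction over the homogenate for the 10 genes, in order. Black points are TMM-scaled with 95% counting intervals, squares use library totals and triangles the deposited TPM; dashed lines mark 2-fold. Cpeb1 alone lies beyond 2-fold lower under TMM, and only Pura is not below 0 under library totals.

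The gene models of the files limit some of these values. Those of Pura, Cpeb4 and Cpeb3 end 4291, 4058 and 1950 bases before the 3′ end of the gene in RefSeq (GRCm38.p6) and so leave out that sequence. Its part in their levels was not tested. By contrast the models of Cpeb1, Cpeb2 and Fxr2 end where RefSeq ends. Exons of Fxr1 share 178 bases (7.66% of its modelled bases) with Dnajc19 on the opposite strand. Cpeb2 shares 137 bases and Cpeb3 67 with antisense genes, and Fmr1 shares 58 (1.32%) with Gm27838 on its own strand, which strand-aware counting could not separate. The library kit marks strand, but use of strand in counting was not given in the sources used here.

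**Figure D5:**
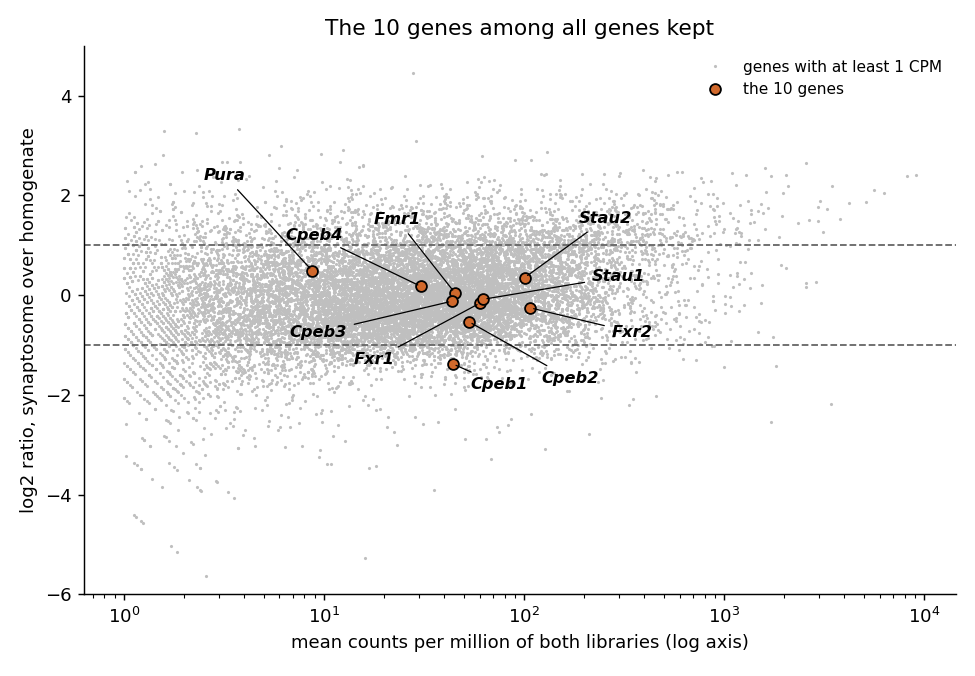
Log2 ratio of the synaptosome fraction over the homogenate against mean CPM (log axis) for genes with at least 1 CPM and counts in both libraries (grey), with the 10 genes in orange; dashed lines mark 2-fold. The 10 genes lie inside the cloud, and Cpeb1 sits near its lower edge at -1.38.

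Other proteins of RNA granules and dendritic RNA transport differed by 2-fold about as often as all genes. Of 50 such genes with at least 1 CPM, 5 were higher (10%, against 12.7% of all genes) and 7 lower (14%, against 9.22%) by the 2-fold rule. Their median log2 ratio was -0.35, against -0.02 for all genes. Trak2, an adaptor that links cargo to kinesin and is not itself an RNA-binding protein, was 3.55-fold higher (3.42 to 3.68). Qk, the glial RNA-binding protein quaking, was 2.88-fold higher (2.78 to 2.99). Caprin2 was 5.02-fold lower (3.56 to 7.27), from 289 counts to 37, and Tia1, a stress granule protein, 3.76-fold lower (3.26 to 4.36). Elavl2, a neuronal Hu protein that stabilises AU-rich mRNAs, was 3.13-fold lower and Mov10, an RNA helicase that associates with FMRP, 2.68-fold lower. These 4 had lower ratios than Cpeb1. Also past the rule were Samd4, Samd4b and Ybx1 on the high side and Elavl4, Tial1 and Atxn2l on the low side.

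Partners of FMRP and CPEB in translational control showed the same median, -0.35 over 33 genes. By the same rule 3 were higher (9.09%, against 12.7% of all genes) and 2 lower (6.06%, against 9.22%), close to what all genes gave. Cyfip1, which joins FMRP to the cap-binding protein eIF4E, was 2.23-fold higher (2.09 to 2.38), with 1505 and 2156 counts. Its close relative Cyfip2, the gene of the list with the most counts in each library, had 15794 and 10052 counts and a ratio of 0.991 (0.966 to 1.02). The eIF4E-binding repressors Eif4ebp2 and Eif4ebp1 were 2.77-fold (2.33 to 3.30) and 2.06-fold higher (1.26 to 3.40), the latter on only 31 and 41 counts. The FMRP-interacting proteins Nufip2 and Nufip1 were 2.39-fold (2.07 to 2.76) and 2.11-fold lower (1.66 to 2.69).

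RNAs that these proteins are known to bind or carry had a higher median than the 10 mRNAs that encode the proteins. Of 27 such targets 11 were higher by 2-fold or more (40.7%, against 12.7% of all genes) and 0 were lower (against 9.22%). Their median log2 ratio was 0.88, or 0.39 under library totals, beside -0.10 and -0.59 for the 10 binding proteins. Bc1, a small noncoding RNA of dendrites, was 4.06-fold higher (3.24 to 5.12), on only 108 and 282 counts. Dlgap3, a postsynaptic scaffold, was 3.86-fold higher (3.72 to 4.02). The scaffolds Shank3 and Shank1 were 4.03-fold and 3.22-fold higher, and Camk2a, the dendritic kinase mRNA, 3.60-fold higher (3.55 to 3.64). App, the amyloid precursor mRNA that FMRP binds, was 3.70-fold higher (3.65 to 3.76). Map1b, the classical FMRP target, listed as Mtap1b, went the other way at 1.36-fold lower (1.32 to 1.40), and Rgs4, a known Staufen2 target, was the lowest at 1.74-fold lower (1.67 to 1.81). This difference between lists is a description of these 2 libraries, and Camk2a, Shank1, Shank3 and Dlg4 stand in the postsynaptic marker list as well. The target list was written with earlier results of these data known, so its excess over all genes is not a test. The share of all genes is also not matched to the abundance of the targets.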

How the data were processed

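The authors deposited expected counts (estimated counts, partly fractional) and TPM for each transcript of each library, and a signal value and a present flag per gene. The deposited signal resembles a scaled count, its scaling not given in the sources used here. TPM, as deposited by the authors, is relative to transcript length and sums to the same total in each library. TopHat 1.3.3, RSEM 1.2.5, edgeR 3.0.6, FastQC and the build mm10 are named per the submitters' processing notes, with no role or settings.

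Here the expected counts were added up by gene symbol and rounded (23329 genes). TMM factors from edgeR 4.0.16 (R 4.3.3), from the 14153 genes averaging 1 CPM or more, were 1.1845 (homogenate) and 0.8442 (synaptosomes). Ratios carry exact Clopper-Pearson 95% intervals given the summed count, and differences of ratios exact conditional ones. Reads without molecular identifiers are not independent molecules. DESeq2 1.42.0 gave alternative size factors. Members, lists and the naming rule were chosen with earlier results of these data known: all 10 members, and in each list up to 6 genes past 2-fold, the 2 most abundant, and the highest and lowest. Family shares, differences between members, the 10-point share shift, and the mention of Map1b, Purg and the further granule genes past 2-fold were chosen after values were seen. The ratio code was tested on simulated data, with Python 3.11.15, numpy 2.4.6, scipy 1.17.1 and pandas 2.3.3.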

Additional observations from a re-analysis of the deposited data

How the results depend on the processing

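With 1 library per fraction, no replicate could be left out, and the counts at 2-fold have no test. No paired analysis was possible because each fraction has a single library. The count of members at least 2-fold lower was 2 with library totals and 2 with TPM, Cpeb2 joining Cpeb1, in place of 1. Of all genes 25.6% were lower with library totals and 27.7% with TPM, so 2 of 10 did not exceed those shares. The count stayed at 1 with DESeq2 size factors (8.89% of all genes lower), upper-quartile scaling (12.7%) and TMM on all genes (9.10%). The deposited signal, a minimum of 10 CPM and a 1.5-fold rule gave 1 as well. The count of members higher was 0 under all of these. Of all genes 4.49% were higher with library totals, 4.01% with TPM and 9.55% with upper-quartile scaling. With DESeq2 size factors 13.04% were higher, and with TMM on all genes 12.8%. No share of all genes is given for the deposited signal, the 10 CPM minimum or the 1.5-fold rule. The member counts under those settings therefore have no background, and a smaller fold calls more genes. The median log2 ratio of the members was -0.59 with library totals and -0.63 with TPM, and lay between -0.24 and -0.08 under the others. The count of member transcripts at least 2-fold different was 2 with library totals and 2 with TPM, in place of 1. No share over all transcripts is given for those settings, so these counts have no background. Of the 10 ratios, 3 changed sign with library totals, 4 with TPM and 1 with upper-quartile scaling. At 10 CPM Pura was left out. The Cpeb2 share shift was -18.2 points in TPM, against -18.3. Depth limits Pura and the minor Cpeb1 transcript most.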
